A study of Homo sapiens with 14 samples.

Results

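The 10 genes described here encode regulators of bone turnover and plasma cell survival that are tied to myeloma bone disease. They are the WNT antagonists DKK1, FRZB, SFRP1, SFRP2 and SOST, the osteoclast ligand TNFSF11 and its decoy receptor TNFRSF11B, and TNFSF13B, INHBA and SPP1. Their regulatory regions were taken as the gene body of the GENCODE annotation plus 50 kb on each side. All reference peaks of accessible chromatin inside these regions were kept, which gave 29 of 72802 peaks in MM.1S and 31 of 79969 peaks in RPMI8226. Both are established multiple myeloma (MM) cell lines. Chromatin accessibility was measured by Omni-ATAC, in which a transposase cuts open DNA, in MM cells grown alone (MONO) or in a transwell system with HS5, a human bone marrow stromal cell line. Cocultured MM cells came from the upper transwell (TSW), which soluble factors reach, or shared the bottom well with HS5 in direct contact (CO). MM.1S had 3 MONO, 3 TSW and 3 CO libraries, and RPMI8226 had 1 MONO, 2 TSW and 2 CO libraries. MM cells were sorted as negative for CD90 and positive for CD38, and the study noted some residual HS5 cells in the lower-chamber sort.

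The deposited lists give for each peak its position and 1 whole number, read here as the number of libraries of the line in which the peak was called, from 3 to 9 in MM.1S and from 3 to 5 in RPMI8226. Neither read counts nor values of individual libraries are among the columns. MONO, TSW and CO could therefore not be compared, and no test was run. The lists carry no sequencing depth, but by the study's library statistics the depths were unequal: the MM.1S libraries were sequenced more deeply than any RPMI8226 library, except for a MONO library that was the shallowest of all. The part of depth in the differences between the lines was not tested. Each line has 1 list, so differences between the lines have no replicate error. Of 15 plasma cell markers, all 15 had a peak at their own promoter in each line. Of 18 markers of bone marrow stroma, 11 had one in MM.1S (76.8% of all protein-coding genes) and 10 in RPMI8226 (71.8%). THY1 (CD90), COL3A1, COL6A3, LUM, POSTN and TAGLN had none in either line, whereas COL1A1, COL1A2, PDGFRA, PDGFRB, FN1, NT5E, CXCL12, DCN and ACTA2 had one in both. LOX and TWIST1 had one in MM.1S only and COL5A1 in RPMI8226 only.

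Bone is kept in balance by osteoblasts, which build it, and osteoclasts, which resorb it. WNT signalling through LRP5 or LRP6 and Frizzled receptors drives osteoblast formation. DKK1 and sclerostin, the product of SOST, block the LRP receptors, whereas the secreted Frizzled-related proteins (SFRP1, SFRP2 and FRZB) bind WNT ligands. RANKL, the product of TNFSF11, drives osteoclast formation and is captured by osteoprotegerin, the product of TNFRSF11B. Myeloma cells disturb both arms, and DKK1 secreted by myeloma cells is among the best known inhibitors of osteoblasts in this disease.

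Sequences of accessible promoter regions are shown for the 4 genes whose own promoter had a peak in every library of a line and lay partly outside protein-coding exons on chromosomes 4, 7, 10 and 17, and for FRZB, which was added after its values were seen because it was the other gene besides DKK1 with a promoter peak in only 1 line. Each is hg38 sequence on the strand of the gene, from inside the peak in each list that has it. Capitals mark CG dinucleotides.
DKK1, chr10:52313981-52314280, plus strand, the 300 bases before the main start site: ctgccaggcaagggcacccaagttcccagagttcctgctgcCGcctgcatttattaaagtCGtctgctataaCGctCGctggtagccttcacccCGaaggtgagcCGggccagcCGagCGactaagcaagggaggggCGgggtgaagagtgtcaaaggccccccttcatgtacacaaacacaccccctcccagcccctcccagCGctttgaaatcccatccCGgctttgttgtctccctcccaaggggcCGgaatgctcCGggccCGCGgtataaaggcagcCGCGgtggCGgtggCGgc
FRZB, chr2:182866864-182867163, minus strand, 526 to 227 bases before the start site: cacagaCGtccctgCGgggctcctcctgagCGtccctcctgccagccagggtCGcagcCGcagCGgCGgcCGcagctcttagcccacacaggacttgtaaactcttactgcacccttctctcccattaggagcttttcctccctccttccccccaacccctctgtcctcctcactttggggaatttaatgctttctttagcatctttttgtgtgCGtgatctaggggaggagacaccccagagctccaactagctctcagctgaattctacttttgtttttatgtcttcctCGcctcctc
SOST, chr17:43760290-43760589, minus strand, 1798 to 1499 bases before the start site: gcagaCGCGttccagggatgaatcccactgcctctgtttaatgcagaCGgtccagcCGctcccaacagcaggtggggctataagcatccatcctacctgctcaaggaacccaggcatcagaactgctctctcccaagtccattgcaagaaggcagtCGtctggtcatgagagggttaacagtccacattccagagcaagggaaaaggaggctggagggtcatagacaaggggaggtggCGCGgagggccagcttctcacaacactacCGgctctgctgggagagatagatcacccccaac
INHBA, chr7:41704904-41705203, minus strand, 2113 to 1814 bases before the main start site, between an upstream start site and the main one: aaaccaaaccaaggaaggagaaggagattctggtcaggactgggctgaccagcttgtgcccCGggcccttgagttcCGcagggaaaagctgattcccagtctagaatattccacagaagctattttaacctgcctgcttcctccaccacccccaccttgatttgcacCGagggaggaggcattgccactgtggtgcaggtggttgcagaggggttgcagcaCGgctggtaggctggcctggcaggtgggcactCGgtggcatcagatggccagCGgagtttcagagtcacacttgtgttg
SPP1, chr4:87975511-87975666, plus strand, 203 to 48 bases before the main start site: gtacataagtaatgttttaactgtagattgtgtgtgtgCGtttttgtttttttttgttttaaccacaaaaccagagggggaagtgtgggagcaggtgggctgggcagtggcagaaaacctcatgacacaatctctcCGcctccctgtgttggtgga
The DKK1 region held 19 CG dinucleotides and the FRZB region 10, whereas SOST held 8, INHBA 6 and the shorter SPP1 stretch of 156 bases 2. The letters TATAAA occurred at base 271 of the DKK1 region, counted from its first base, and in none of the other 4 regions on the printed strand. Those 4 regions end 48 or more bases before the start site, so they lack the bases nearest to it, which the DKK1 region holds. Between 250 bases before and 50 after the main start site, TATAAA was found for INHBA as well as DKK1 among the 10 genes. It was found there for 7.11% of all protein-coding genes.

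A peak was assigned to a gene's own promoter when it came within 2500 bp of any annotated start site of that gene. Of the 10 genes, 7 had an own-promoter peak in MM.1S, against 76.8% of 20033 protein-coding genes, and 5 had one in RPMI8226, against 71.8%. A peak called in every library of the line was present at 5 of the 10 own promoters in MM.1S, against 69.2% of all genes, and at 5 in RPMI8226, against 66.5%. Own-promoter peaks were present in both lines for SOST, TNFRSF11B, TNFSF13B, INHBA and SPP1 (68.6% of all genes had them in both). DKK1 and FRZB had one in MM.1S only (8.19% of all genes), no gene had one in RPMI8226 only (3.21%), and SFRP1, SFRP2 and TNFSF11 had none in either (20.0%). The map of peaks by distance shows the positions for each gene.

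**Figure D1:**
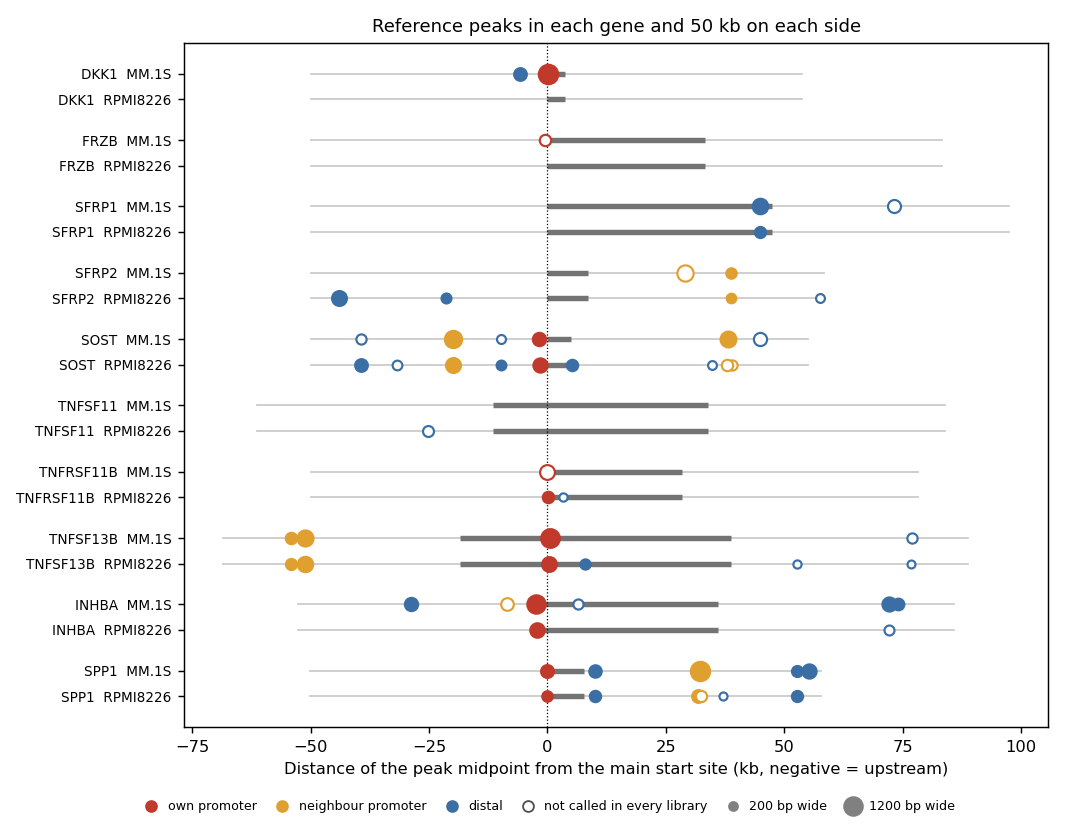
Reference peaks of both lines in the 10 gene regions, by distance of the peak midpoint from the main start site in kb (negative values are upstream); thick grey bars are gene bodies, thin grey lines the 50 kb flanks, symbol area rises with peak width, and open symbols are peaks not called in every library of the line. DKK1 and FRZB carry peaks in MM.1S and none in RPMI8226, whereas SOST, TNFRSF11B, TNFSF13B, INHBA and SPP1 carry own-promoter peaks in both lines.

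Among the WNT antagonists, DKK1 had both of its peaks in MM.1S and none in RPMI8226. Its MM.1S promoter peak, chr10:52313733-52315025, was 1293 bp wide, was called in all 9 libraries and covered the main start site at 52314281 together with another of the 4 annotated start sites. It also lay within 2500 bp of a start site of the antisense gene PRKG1-AS1. Of all MM.1S promoter peaks, 86.4% were narrower. A 496 bp distal peak, chr10:52308315-52308810, lay 5.7 kb upstream in an intron of PRKG1-AS1 and was also called in all 9 libraries. Because both were called in every library, both were open in the MONO libraries, which were grown without HS5. In RPMI8226 no peak lay in the 103.8 kb region of DKK1 or in the region of FRZB, as was so for 4.57% of protein-coding genes. The nearest RPMI8226 peaks were 56.6 kb upstream and 122.9 kb downstream of the start site, and the 179.5 kb between them held 3 MM.1S peaks, all called in all 9 libraries. An own-promoter peak in every MM.1S library together with no RPMI8226 peak in the gene and its flanks was found for 0.474% of protein-coding genes.

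FRZB, which encodes a Frizzled-related protein that binds WNT ligands, had a single peak in its 133.4 kb region. This MM.1S peak, chr2:182866864-182867241, was called in 8 of 9 libraries, was 378 bp wide, narrower than the MM.1S promoter median of 729 bp, and ended 227 bp upstream of the only annotated start site. RPMI8226 had no peak in a 231.8 kb interval around the FRZB start site. With DKK1, 2 of the 10 genes thus had an own-promoter peak in MM.1S and none anywhere in the region in RPMI8226, against 0.689% of all protein-coding genes. The reverse pattern was found for 0.265% of all genes and for 0 of the 10. As for DKK1, these shares are a description and not a test.

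The promoters of the other Frizzled-related genes had no peak in either line. In SFRP1 (chromosome 8, start site 41309473) the only peak common to both lines lay at the opposite end of the gene, in its 3′ UTR, 44.9 kb downstream of the start site. It was 787 bp wide and called in all 9 MM.1S libraries, and 357 bp wide and called in all 5 RPMI8226 libraries. A second MM.1S peak, called in 5 libraries, lay beyond the gene. SFRP2 (chromosome 4, start site 153789083) had its nearest peak 28.7 kb from the start site in MM.1S and 21.3 kb in RPMI8226. The MM.1S peaks of its region, called in 9 and 8 libraries, both lay at start sites of the neighbouring gene RNF175. RPMI8226 shared the first of these and had 3 distal peaks, of which those at 21.4 and 44.1 kb upstream were called in all 5 libraries.

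SOST, in adults chiefly a gene of osteocytes, had the most peaks of the 10 genes in RPMI8226, with 9, and 6 in MM.1S. Its own-promoter peak did not touch the start site. In MM.1S it was chr17:43760290-43760841, called in all 9 libraries and 1499 bp upstream at its nearest edge. In RPMI8226 it was chr17:43760006-43760651, called in all 5 libraries and 1215 bp upstream, and the lists shared 362 bp of it. With promoters limited to 1000 bp, SOST no longer had an own-promoter peak in either line. A 377 bp RPMI8226 peak at the 3′ end of the gene, called in all 5 libraries, had no MM.1S counterpart. Other peaks lay at the start sites of DUSP3 and CFAP97D1 (995 bp in MM.1S and 725 bp in RPMI8226, each called in every library) and of the pseudogene WHSC1L2P.

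The osteoclast ligand and its decoy receptor differed from each other in both lines. TNFSF11 (RANKL, chromosome 13) had no MM.1S peak in its 145.3 kb region, as did 3.96% of protein-coding genes, and 1 RPMI8226 peak, called in 4 of 5 libraries and 25.2 kb upstream of the main start site. The MM.1S interval without a peak around the TNFSF11 start site was 423.3 kb, and RPMI8226 had 7 peaks in it, 2 of them called in all 5 libraries. TNFRSF11B (osteoprotegerin, chromosome 8) had a peak over its main start site at 118951885 in both lines. It was 710 bp wide and called in 8 of 9 libraries in MM.1S, and 384 bp wide and called in all 5 libraries in RPMI8226, with 326 bp in common. Beyond it the region held only a 156 bp intronic RPMI8226 peak called in 3 libraries.

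TNFSF13B encodes BAFF, a survival ligand for B cells and plasma cells, and INHBA encodes the subunit of activin A, which favours osteoclasts and restrains osteoblasts. The TNFSF13B start site at 108269718 on chromosome 13 was covered in every library of both lines, by peaks of 1189 bp in MM.1S and 709 bp in RPMI8226. The RPMI8226 peak lay wholly inside the MM.1S peak. An intronic peak 8.0 kb downstream was called in all 5 RPMI8226 libraries and had no MM.1S counterpart. A pair of peaks in the upstream flank, called in every library of both lines, were those of LIG4 and ABHD13. For INHBA (chromosome 7) the own-promoter peak lay not at the main start site, 41703090, but over upstream start sites. In both lines it also lay within 2500 bp of a start site of the antisense gene INHBA-AS1. It was 1143 bp wide in MM.1S, where it covered 2 of the 5 annotated start sites, and 675 bp wide in RPMI8226, where it covered 1, and it was called in every library of each line. With it the INHBA region held 6 peaks in MM.1S and 2 in RPMI8226. The MM.1S peaks without a counterpart included chr7:41731684-41732228, 28.9 kb upstream in an intron of INHBA-AS1, and chr7:41628849-41629253, 74.0 kb downstream, each called in all 9 libraries. Another pair, 1 in an INHBA intron and 1 in an exon of INHBA-AS1, were called in only 3 libraries each.

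SPP1 encodes osteopontin, a protein of bone matrix that binds CD44 and integrins. Its main start site at 87975714 on chromosome 4 was covered by a 510 bp peak in all 9 MM.1S libraries and by a 310 bp peak in all 5 RPMI8226 libraries, the second wholly inside the first. A distal peak 10.0 kb downstream (chr4:87985528-87985999 in MM.1S, 472 bp, and 374 bp in RPMI8226) was likewise called in every library of both lines. Of the SPP1 region's peaks, 4 of 5 in MM.1S and 5 of 6 in RPMI8226 overlapped the other list, and those farther downstream lay at the promoter or in introns of PKD2. The plot of peak counts sets the 10 regions side by side.

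**Figure D2:**
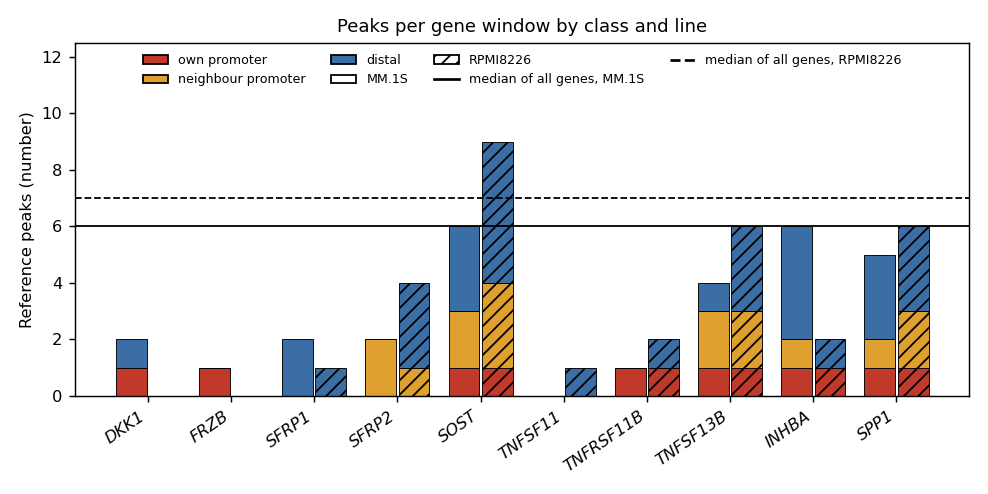
Number of reference peaks in each gene region (gene body plus 50 kb on each side), plain bars for MM.1S and hatched bars for RPMI8226, coloured by class; horizontal lines are the medians over 20033 protein-coding genes, 6 in MM.1S and 7 in RPMI8226. Only SOST in RPMI8226, with 9 peaks, exceeds its line's median, and SOST and INHBA reach it in MM.1S.

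The 10 regions were sparse in peaks. The median was 2 peaks a gene in each line, from 0 to 6 in MM.1S and from 0 to 9 in RPMI8226, against medians of 6 and 7 over all protein-coding genes. Per 100 kb of region the medians were 1.89 in MM.1S and 1.5 in RPMI8226, against 4.22 and 4.42. In MM.1S the 29 peaks comprised 7 own-promoter, 8 neighbour-promoter and 14 distal peaks, and in RPMI8226 the 31 peaks comprised 5, 8 and 18. Promoter peaks of any gene thus made up 51.7% in MM.1S (95% Wilson interval 34.4 to 68.6%), against 39.2% of the whole list, and 41.9% in RPMI8226 (interval 26.4 to 59.2%), against 36.0%. Both intervals include the share of the whole list. The intervals cover counting error only, and neighbouring peaks are not independent.

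Sharing between the lines was close to that of all peaks. Of the 29 MM.1S peaks, 18 overlapped an RPMI8226 peak by at least 1 bp (62.1%, 95% Wilson interval 44.0 to 77.3%), against 64.6% of the whole list. Of the 31 RPMI8226 peaks, 19 overlapped an MM.1S peak (61.3%, interval 43.8 to 76.3%), against 62.0%. By class, 5 of 7 own-promoter peaks were shared in MM.1S and 5 of 5 in RPMI8226, where 71.8% and 76.6% of all promoter peaks were. Of the distal peaks, 7 of 14 were shared in MM.1S (60.0% of all distal peaks) and 7 of 18 in RPMI8226 (53.7%). Among the roles, the WNT antagonist regions shared 7 of 13 MM.1S and 7 of 14 RPMI8226 peaks.

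The library number limits which peaks could differ in presence between the culture conditions. In MM.1S, all 9 libraries held 19 of the 29 peaks (65.5%, 95% Wilson interval 47.3 to 80.1%), against 52.0% of the whole list, and in RPMI8226 all 5 held 19 of the 31 (61.3%, interval 43.8 to 76.3%), against 64.1%. A MM.1S peak called in at most 6 libraries could lack all 3 MONO libraries. This held for 7 of the 29 peaks (27.7% of the whole list), in the regions of SOST with 3, INHBA with 2, and SFRP1 and TNFSF13B with 1 each. In RPMI8226, 12 of 31 peaks could lack the MONO library (35.9% of the whole list). No own-promoter peak of the 10 genes was among them in either line, so each of these promoters was open in at least 1 MONO library.

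Base composition was compared next, because promoters rich in CG dinucleotides are often open whatever the cell type. In the 300 bases from 250 before to 50 after the main start site, the median over 20033 protein-coding genes was 23 CG dinucleotides, and the share of genes with an own-promoter peak rose from 37.0% in MM.1S and 36.7% in RPMI8226 at 0 to 5 CG dinucleotides to 92.6% and 87.4% at 31 or more. The 10 genes did not follow that order. SFRP1 had the most, with 33, and no peak in either line. TNFSF13B and INHBA had 1 each, SPP1 had 6 and SOST 7, and all 4 had own-promoter peaks in both lines, although those of SOST and INHBA lay outside these 300 bases. The TNFSF13B peaks covered the start site but in both lines lay mostly downstream of these 300 bases. For SOST, INHBA and TNFSF13B the count therefore describes little or none of the open sequence. DKK1 and TNFRSF11B had 20 each and FRZB 17, in a class where 84.0% of genes were open in MM.1S and 78.0% in RPMI8226. SFRP2, with 15, and TNFSF11, with 14, were without a peak in a class where 72.0% and 63.0% were open.

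**Figure D3:**
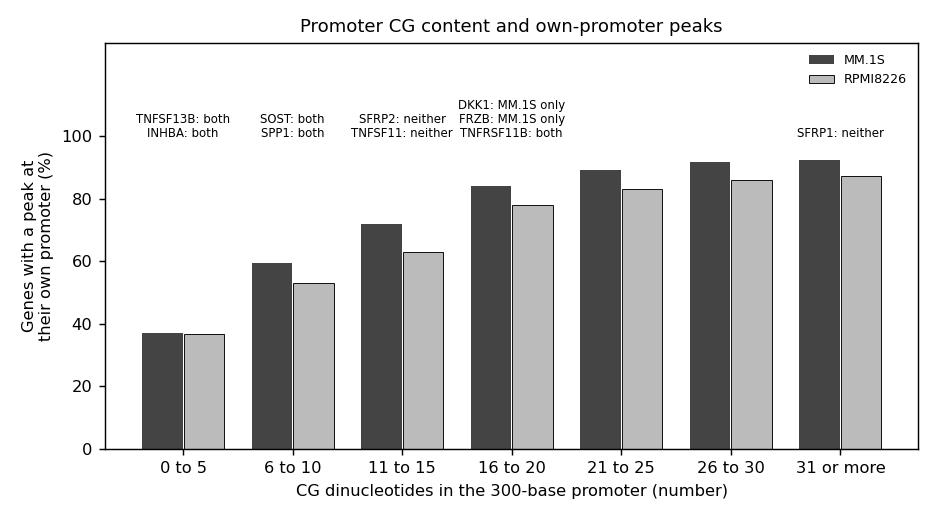
Share of protein-coding genes with a peak at their own promoter (%, vertical axis) by the number of CG dinucleotides in the 300-base promoter (horizontal axis), in MM.1S (dark bars) and RPMI8226 (light bars), with each of the 10 genes written above its class and the lines in which its own promoter had a peak. SFRP1 stands in the class of 31 or more, of which 92.6% were open in MM.1S, without a peak in either line.

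Motif letters were sought on both strands in the central 200 bp of each peak. The AP-1 letters TGANTCA occurred in 4 of 14 distal peaks of the 10 regions in MM.1S (28.6%, against 12.4% of all distal peaks) and in 6 of 18 in RPMI8226 (33.3%, against 21.1%). In MM.1S these were 1 peak each in the regions of SFRP1, SOST, TNFSF13B and INHBA, and those of SFRP1, SOST and TNFSF13B held the letters in both lists. Among promoter peaks of the regions, the AP-1 letters occurred in 0 of 15 in MM.1S (6.24% of all promoter peaks) and in 1 of 13 in RPMI8226 (11.6%). An NF-kB form, the letters GGGA and CC with any 4 bases between them, occurred in 4 of 15 promoter peaks in MM.1S (19.3% of all promoter peaks), the DKK1 promoter peak among them, and in 5 of 13 in RPMI8226 (18.8%). In distal peaks it occurred in 2 of 14 in MM.1S (11.9% of all distal peaks) and in 1 of 18 in RPMI8226 (12.4%). The TCF/LEF letters CTTTGAT, the motif of the factors that act in WNT signalling, were found in 1 of the 29 MM.1S peaks, at the TNFRSF11B promoter (2.23% of all MM.1S peaks), and in 0 of 31 in RPMI8226 (2.04%). The ATF::CEBP letters TGATGNAA occurred in 0 of the 29 MM.1S peaks (3.05% of all peaks) and in 1 of the 31 RPMI8226 peaks (3.42%). The STAT3 letters TTCCNGGAA occurred in 0 in each line (0.593% and 0.633% of all peaks). With so few peaks these counts are a description of the regions.

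Genes that act with these 10 were examined by own-promoter peaks, in lists chosen by function. Of all protein-coding genes, 76.8% had such a peak in MM.1S and 71.8% in RPMI8226. Peaks in MM.1S only were found for 8.19% and in RPMI8226 only for 3.21%. Of 14 other WNT antagonists, 9 had one in MM.1S and 7 in RPMI8226. SFRP5 and WIF1 had one in MM.1S only, called in 3 and 8 libraries, and DKK2, DKK4, SFRP4, SOSTDC1 and APCDD1 had none in either line. Of 29 WNT receptors and effectors, 28 had one in MM.1S (96.6%) and 22 in RPMI8226 (75.9%). The 6 with a peak in MM.1S only were the receptor genes FZD6, FZD8, FZD9 and LGR5, the adaptor gene DVL1 and LEF1. The last encodes a transcription factor of the pathway. FZD6, FZD8 and DVL1 had one in all 9 libraries, whereas that of LGR5 was called in 8 and that of FZD9 in only 3. A peak entered either list from 3 libraries, of 9 in MM.1S and of 5 in RPMI8226. The part of this in the MM.1S-only peaks of these lists was not tested. LEF1 had 3 own-promoter peaks in MM.1S, at least 1 of them in all 9 libraries, and its region held 11 MM.1S and 3 RPMI8226 peaks. Of 19 WNT ligands, 15 had one in MM.1S and 14 in RPMI8226. WNT6 and WNT8A had one in MM.1S only, called in at most 5 and 8 libraries. WNT7A was the only gene of the pathway lists with a peak in RPMI8226 only, called in all 5 libraries.

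Of 10 other genes of RANK and BAFF signalling, 10 had an own-promoter peak in MM.1S (76.8% of all genes) and 9 in RPMI8226 (71.8%). The gene without one in RPMI8226 was TNFRSF13C, which encodes the BAFF receptor, with a peak in 8 MM.1S libraries. Of 15 other activin genes, 14 had an own-promoter peak in MM.1S and 13 in RPMI8226. INHA had one in MM.1S only, called in 5 libraries. Of 11 osteopontin receptors and related bone matrix genes, 6 had one in MM.1S and 4 in RPMI8226. CD44, a receptor of osteopontin, and SPARC, which encodes a matrix protein, had one in all 9 MM.1S libraries and none in RPMI8226, whereas BGLAP, DMP1, DSPP, IBSP and MEPE had none in either.

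**Figure D4:**
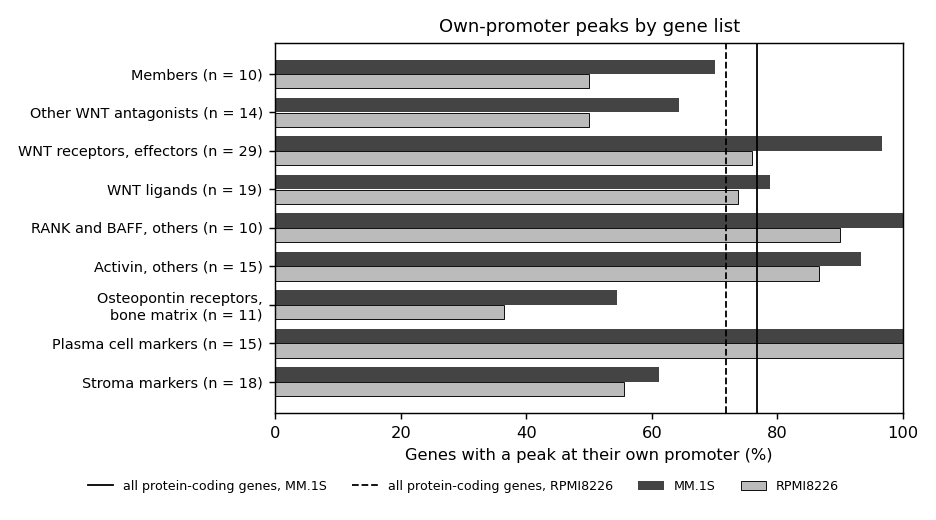
Share of genes with a peak at their own promoter (%, horizontal axis) for the 10 genes, 6 lists of related genes and 2 marker lists, dark bars for MM.1S and light bars for RPMI8226; vertical lines are the shares over all protein-coding genes, 76.8% in MM.1S and 71.8% in RPMI8226. The 10 genes, at 70.0% and 50.0%, and the other WNT antagonists, at 64.3% and 50.0%, lie below those lines. So do the osteopontin and bone matrix list and the stroma markers, whereas all other lists lie above them. The lists are short, at 10 to 29 genes, and the differences were not tested.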

How the data were processed

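Omni-ATAC libraries of MM.1S and RPMI8226 cells were assigned to their line and condition by their titles. By the study's methods and the submitters' processing notes, the authors aligned reads to hg38 with Bowtie2, left out reads mapping to several places, kept 1 read per position and then called peaks with MACS3. Peaks present in at least 3 samples entered the deposited reference list of the line. The calling threshold and the rule for merging are not given in the sources used here. The deposited whole number per peak is not normalized and carries no header, so its reading as a number of libraries rests on its range.

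Peak starts were read as 0-based and are printed 1-based. Gene positions came from GENCODE release 44 on hg38, and the main start site is that of the Ensembl canonical transcript. Own-promoter, neighbour-promoter (within 2500 bp of another gene's start site) and distal classes exclude one another. A peak was shared if it overlapped the other list by 1 bp. Shares have 95% Wilson intervals. Overlap functions were tested on simulated intervals. Genes named outside the 10 are those with an own-promoter peak in 1 line only and neighbours whose promoter or body holds a peak. All stroma markers are named too. List members without a peak were added after seeing the values. The members and lists were chosen with earlier results of these data known. Analyses used Python 3.11.15, pandas 2.3.3 and scipy 1.17.1.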

Additional observations from a re-analysis of the deposited data

How the results depend on the processing

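Of 54 recomputed values, 41 stayed within 1.5 times the count or within the 95% interval of the share given above. Which peaks enter changed the counts by construction. With flanks of 20 kb the regions held 14 peaks in each line, and with 100 kb they held 51 in MM.1S and 54 in RPMI8226. Peaks called in every library numbered 19 in each line, and peaks reaching the median width of their list numbered 15 in MM.1S and 13 in RPMI8226. With an overlap of 50% required of each peak, 41.4% of MM.1S and 38.7% of RPMI8226 peaks were shared, the cause of which was not tested. In RPMI8226 the promoter share was 69.2% among wide peaks. The share called in every library was 84.6% among wide peaks and 78.6% with flanks of 20 kb. Shares of the whole lists were not computed for the 50% overlap or for wide peaks. Whether those values are particular to the gene regions was therefore not tested. In the whole RPMI8226 list the median width was 474 bp for promoter and 327 bp for distal peaks. It was 452 bp for peaks called in 5 libraries and 220 bp for those called in 3. The DKK1 promoter peak of MM.1S and the absence of one in RPMI8226 held at promoter widths of 1000 and 5000 bp, for protein-coding transcripts, for peaks called in every library, with MM.1S peaks called in at least 6 libraries and for wide peaks. FRZB lost its MM.1S peak among peaks called in every library and among wide peaks.

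No paired analysis was possible because the lists hold no value for a single library, and for the same reason no replicate was left out. The lists carry no depth, and the libraries of the lines were sequenced to unequal depth, so a missing peak says only that none was called in 3 or more libraries.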
